A study of Mus musculus with 6 samples.

Results

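Transcripts of the proteasome, the protein complex that degrades ubiquitin-tagged proteins, were compared in prostates of TRAMP mice given OSU-CG5 or vehicle. The members are the genes whose symbol is Psma, Psmb, Psmc, Psmd, Psme, Psmf or Psmg followed by digits, taken from probe sets annotated to a single symbol. The rule gave 47 genes of the 18193 measured, on 100 of the 45037 probe sets, and where a gene had several, the brightest by mean of the 6 arrays stood for it. Of the 47, 19 were read by probe sets whose name ending marks possible sharing of probes between transcripts, such as pseudogenes, gene copies or isoforms, and their values are uncertain to that extent. Psme2 was not analysed here, because its probe set is annotated to more than 1 symbol. Both groups were intact males of the (C57BL/6 TRAMP x FvB) F1 cross, in which the SV40 T antigens are driven in prostate epithelium by the probasin promoter, so the controls carried the transgene as well. Mice received vehicle or OSU-CG5 at 100 mg/kg per day by oral gavage for 4 weeks, from 6 to 10 weeks of age, and the dorsal and lateral prostate lobes were taken about 2 to 4 h after the last dose. OSU-CG5, known by its code name, has been described as an energy restriction-mimetic agent. Each group held 3 mice, with 1 Affymetrix array per mouse, and all values below are log2 expression values. The lobes were bulk tissue, so fewer cells of a type and less RNA per cell cannot be told apart.

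As background, the proteasome is a barrel of stacked rings. Outer rings of alpha subunits (Psma genes) form the gate, and inner rings of beta subunits (Psmb genes) hold the proteolytic sites. A regulatory cap binds the gate: its ATPase ring (Psmc genes) unfolds the substrate, and its other subunits (Psmd genes) recognise ubiquitin and remove it. Under interferon, Psmb8, Psmb9 and Psmb10 replace the standard catalytic subunits Psmb5, Psmb6 and Psmb7, which gives the immunoproteasome, and Psme1 and Psme2 form a matching activator. Assembly chaperones include the Psmg genes and Psmd5, Psmd9 and Psmd10. When proteasome activity is short, the transcription factor Nfe2l1 acts with small Maf proteins at antioxidant response elements and can induce the subunit genes together.

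The tissue carried its epithelial markers on every array. Pbsn, the probasin gene, read 13.28 to 13.91. Of the 9 measured luminal markers 0 had an unadjusted p under 0.05 in limma, against 13.8% of all genes. The luminal keratin Krt8 came near, with a difference of -0.50 (SE 0.22; unadjusted p = 0.0516 in limma). It passed without vehicle replicate 1, with cyclic loess, with repeated quantile normalization and with an intensity trend. With array weights only Apof passed, and it read higher. Vehicle replicate 2 stood apart. Its correlations with the other arrays over the 47 genes were 0.978 to 0.985, against 0.992 to 0.998 for all other pairs, and its mean of 6 seminal vesicle transcripts was 7.91 against 3.56 to 5.08 elsewhere. Leukocyte markers read lower with OSU-CG5, with 21 of 22 below 0 and array means of 6.41 to 6.50 in vehicle and 6.02 to 6.21 with OSU-CG5. All 11 skeletal muscle markers were also below 0, with array means of 6.04 to 6.52 and 5.21 to 5.88, and so were 9 of 11 markers of smooth muscle and stroma, with array means of 9.64 to 9.66 and 9.23 to 9.72. Over all genes, 11945 of 18193 were below 0. Of the 11 skeletal muscle markers, 8 read lower at an unadjusted p under 0.05 in limma, against 8.43% of all genes. With each array left out in turn, 6 to 8 of them did. Of the 11 smooth muscle and stroma markers, 4 read lower at an unadjusted p under 0.05 in limma, against 8.43% of all genes. That count was 1 without vehicle replicate 3. It was 2 without vehicle replicate 2, OSU-CG5 replicate 2 or OSU-CG5 replicate 3. For the Gapdh control, the 3' minus the 5' probe set, which widens with RNA degradation, gave 2.15 to 2.76 in vehicle and 2.72 to 3.03 with OSU-CG5. The same for Actb gave 2.91 to 3.15 and 2.97 to 3.11. The part of these differences in the results below was not tested. A value given without an array shows only how far the result rested on that array.

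Across the 47 genes, differences between OSU-CG5 and vehicle were small. No proteasome gene passed limma's test after Benjamini-Hochberg adjustment over all probe sets, where 0 of 45037 passed, 0% of those tested, and the smallest adjusted p among the 47 was 0.198. Over all probe sets 400 passed without vehicle replicate 2 and 885 without vehicle replicate 3, but none of the 47 genes at its brightest probe set. An unadjusted p under 0.05 was given for 3 genes, 6.38% of the 47, against 13.8% of all genes measured in the same way and 16.4% of all probe sets. These were Psme4, which read higher (5.4% of all genes did at this threshold), and Psmb3 and Psmg4, which read lower (8.43% did). The groups did not overlap for 5 of the 47 genes, 2 higher and 3 lower, against 22.3% of all genes. Without vehicle replicate 2, OSU-CG5 replicate 2 or OSU-CG5 replicate 3, 1 gene was left at the unadjusted threshold, Psmb3 each time. Log2 differences ran from -0.54 for Psmb3 to 0.33 for Psmc6, and none reached 1.5-fold, a size that 2.41% of all genes reached. The median over the 47 genes was -0.10 with 18 above 0, beside -0.09 over all genes, of which 34.3% were above 0. Among genes with a mean of at least log2 6, which 45 of the 47 had, the median over all was -0.02. For 30 of the 47 genes the 95% interval of the difference lay within 1.5-fold in both directions. For the other 17 the arrays leave a larger difference possible.

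**Figure D1:**
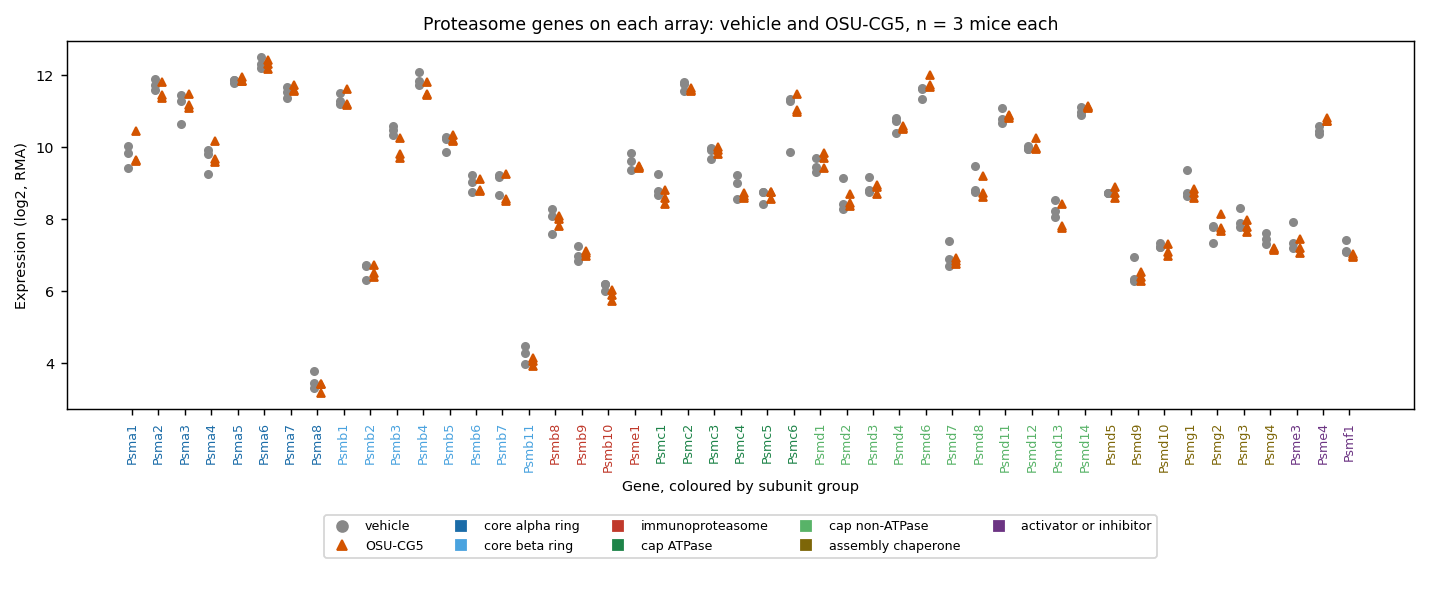
Log2 expression of the 47 proteasome genes (vertical axis) on each array, with vehicle as grey circles and OSU-CG5 as orange triangles, and gene names coloured by subunit group. The groups overlap for 42 of the 47 genes, and vehicle replicate 2 is the low circle of Psmc6 at 9.88.

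**Figure D2:**
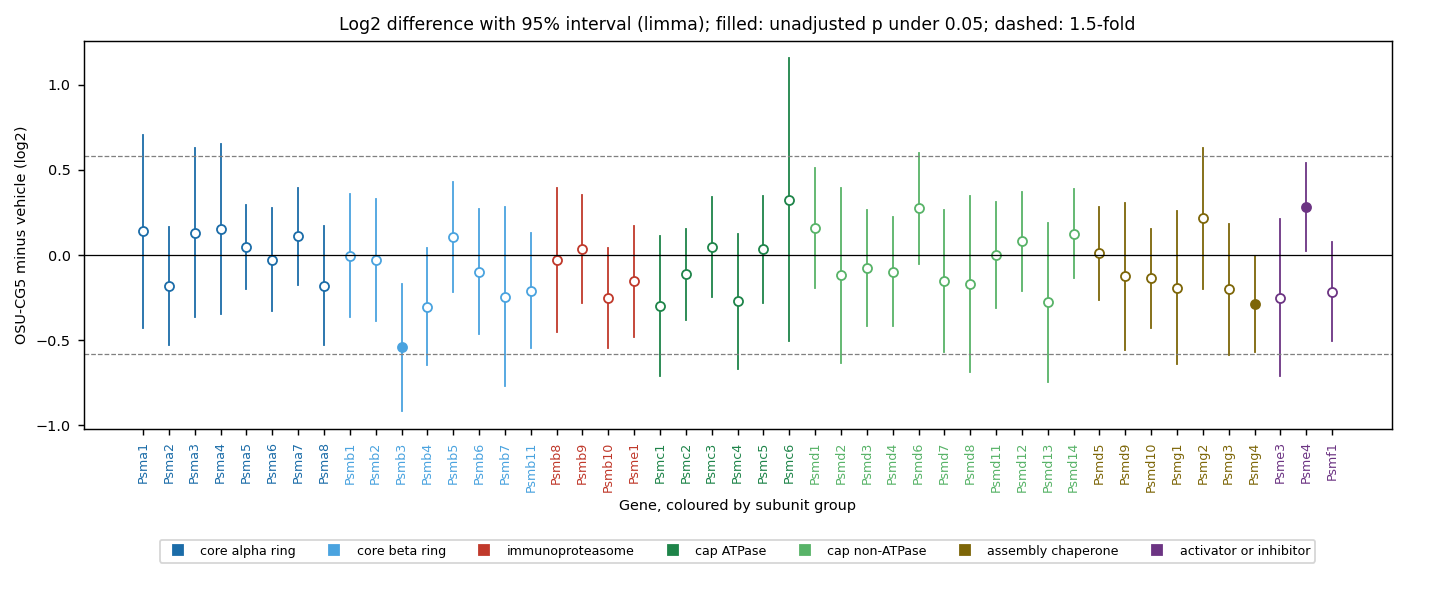
Log2 difference of OSU-CG5 minus vehicle for each proteasome gene, with the 95% interval from limma as a line. Filled points mark the 3 genes with an unadjusted p under 0.05, and dashed lines mark 1.5-fold in each direction.

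The alpha ring showed no gene at an unadjusted p under 0.05 in limma. Its 8 genes had a median log2 difference of 0.08, with 5 above 0 and 3 below, and the median turned to -0.05 without vehicle replicate 2 and to -0.06 without OSU-CG5 replicate 1. Psma4 had the largest positive value. It read 9.93, 9.25 and 9.81 in vehicle and 10.18, 9.69 and 9.59 with OSU-CG5, a difference of 0.15 (SE 0.22), and the groups overlapped. Psma1 and Psma3 gave differences of 0.14 (SE 0.25) and 0.13 (SE 0.22). In all 3 of these genes vehicle replicate 2 was the lowest vehicle array, and without it the differences were -0.05, -0.03 and -0.11. Psma2 read 11.72, 11.60 and 11.89 in vehicle and 11.82, 11.38 and 11.47 with OSU-CG5, a difference of -0.18 (SE 0.15). The gate subunit Psma5 was among the steadiest, at 11.80 to 11.86 in vehicle and 11.85 to 11.96 with OSU-CG5, and its 95% interval ran from -0.20 to 0.30. Psma7 differed by 0.11 (SE 0.12) and Psma6 by -0.03 (SE 0.13). Psma8, an alpha subunit of male germ cells, read 3.19 to 3.80 over all arrays, near the bottom of the scale.

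In the beta ring 7 of 8 genes were below 0, as were 11945 of the 18193 genes measured. These 7 include Psmb1 at -0.004, and Psmb11, which read near the bottom of the scale. The median of the ring was -0.15. Omitting single arrays moved this median between -0.18 and -0.08. A minimum mean of log2 6, which drops Psmb11, gave -0.10. Psmb3, a structural beta subunit with no catalytic site, had the lowest difference of all 47 genes. It read 10.49, 10.34 and 10.60 in vehicle and 10.26, 9.82 and 9.71 with OSU-CG5. The groups did not overlap, which in the lower direction held for 14.2% of all genes. The difference was -0.54 (SE 0.16), with an unadjusted p of 0.00989 and a limma adjusted p of 0.198. It was between -0.71 and -0.44 under every alternative tried and -0.61 without vehicle replicate 2. The other probe set of Psmb3 read 7.28, 7.38 and 6.94 in vehicle and 7.29, 6.70 and 6.20 with OSU-CG5, a difference of -0.47 (SE 0.26) with overlapping groups. Psmb4, another structural subunit, differed by -0.30 (SE 0.15) and its other probe set by -0.25 (SE 0.16). Both probe sets overlapped between the groups, since OSU-CG5 replicate 1 read among the vehicle arrays. The brightest had an unadjusted p of 0.0762 in limma. It was under 0.05 with cyclic loess, repeated quantile normalization or array weights, and without OSU-CG5 replicate 1. Psmb1 and Psmb2 differed by 0.00 and -0.03, and Psmb11, the beta subunit of the thymus, read 3.94 to 4.48 throughout.

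The sequence before the RefSeq start of Psmb3 is shown because this gene had the lowest difference. It covers 250 bases of build GRCm38.p6 (chr11:97703184-97703433, plus strand), written 5′ to 3′ with the match to an interferon-stimulated response element, GAAA followed after any 2 bases by GAAA on either strand, in capitals. The match ends 154 bases before the start. Such a match was present in 3 of the 39 member genes found in the RefSeq promoter table and in 2.98% of its 32851 promoters.
Psmb3: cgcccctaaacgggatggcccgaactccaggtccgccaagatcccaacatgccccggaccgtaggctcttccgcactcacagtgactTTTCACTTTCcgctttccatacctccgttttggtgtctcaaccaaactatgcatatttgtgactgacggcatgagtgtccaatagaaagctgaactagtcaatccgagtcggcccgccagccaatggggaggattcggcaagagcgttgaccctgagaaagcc

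None of the standard catalytic subunits or their interferon-inducible counterparts had an unadjusted p under 0.05 in limma with all arrays weighted equally. Psmb5, the chymotrypsin-like subunit, read 9.88, 10.24 and 10.29 in vehicle and 10.21, 10.33 and 10.19 with OSU-CG5. Its inducible counterpart Psmb8 read 7.61, 8.11 and 8.29 in vehicle and 7.81, 8.08 and 8.02 with OSU-CG5. The OSU-CG5 values of both genes lay inside or close to the vehicle range, with differences of 0.11 (95% interval -0.22 to 0.43) and -0.03 (-0.46 to 0.39). Psmb6, the caspase-like subunit, read 8.75, 9.23 and 9.05 in vehicle and 9.13, 8.82 and 8.79 with OSU-CG5. Psmb9, which takes its place, read 6.84, 7.26 and 6.97 in vehicle and 7.06, 6.98 and 7.13 with OSU-CG5. These differed by -0.10 (-0.47 to 0.27) and 0.04 (-0.28 to 0.35), with overlapping groups. Psmb7, the trypsin-like subunit, read 9.18, 8.68 and 9.24 in vehicle and 9.26, 8.52 and 8.58 with OSU-CG5, a difference of -0.24 (SE 0.23). OSU-CG5 replicate 1 was its highest array, and without it the difference was -0.48 with an unadjusted p of 0.0421 (limma adjusted p = 0.397). Without vehicle replicate 2 it was -0.42, with an unadjusted p of 0.0736. With array quality weights on all arrays it was -0.47, with an unadjusted p of 0.0310 in limma. Psmb10 read 6.21, 6.20 and 6.01 in vehicle and 5.91, 6.03 and 5.73 with OSU-CG5. Its difference of -0.25 (SE 0.13) had an unadjusted p of 0.0821 (limma adjusted p = 0.361), and only 1 OSU-CG5 array reached into the vehicle range.

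**Figure D3:**
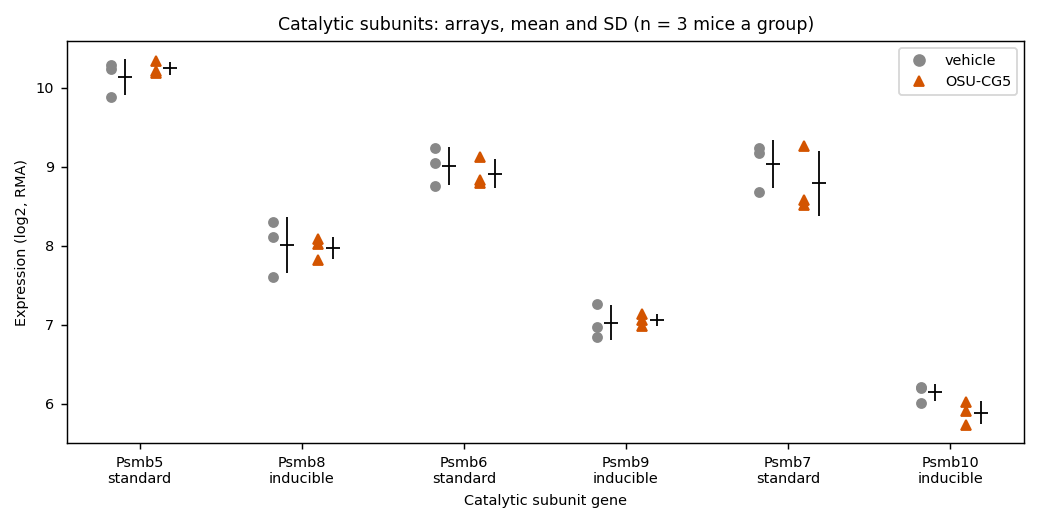
Log2 expression of the 3 standard catalytic subunits and their inducible counterparts on each array (circles, vehicle, and triangles, OSU-CG5), with mean and SD of 3 mice as black marks. The groups overlap for all 6 genes, and levels of different genes are not comparable because each is read by its own probes.

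Because an inducible subunit takes the place of its standard partner, the shift of each pair was compared within arrays. Psmb8 minus Psmb5 moved by -0.14 between the groups (SD, n = 3: -2.13 ± 0.14 for vehicle, -2.27 ± 0.11 for OSU-CG5), with an exact permutation p of 0.3, two-sided. Psmb9 minus Psmb6 moved by 0.13 (n = 3; exact permutation p = 0.4) and Psmb10 minus Psmb7 by -0.01 (n = 3; exact permutation p = 0.9). The adjusted values over the 3 pairs were 0.6, 0.6 and 0.9, and this design cannot give a p below 0.1. Only the movement can be read from these values, not which gene of a pair was more abundant.

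The immunoproteasome genes as a group had a median of -0.09, with 1 of 4 above 0 and 0 at an unadjusted p under 0.05. Psme1, part of the interferon-inducible activator, read 9.37, 9.84 and 9.61 in vehicle and 9.49, 9.42 and 9.45 with OSU-CG5, a difference of -0.15 (SE 0.14). For all 4 genes the 95% interval lay within 1.5-fold. Among 11 measured genes of class I presentation and interferon response, the median was -0.01, with 1 higher and 1 lower at an unadjusted p under 0.05 in limma, against 5.4% and 8.43% of all genes. Leaving out OSU-CG5 replicate 3 left 0 of these, and leaving out vehicle replicate 1, OSU-CG5 replicate 1 or OSU-CG5 replicate 2 left 1. The peptide transporter subunit Tap1 differed by 0.15 (SE 0.15), the class I light chain B2m by -0.01 (SE 0.11) and the interferon-induced factor Irf1 by 0.00 (SE 0.10). The class I transactivator Nlrc5 differed by 0.36 (SE 0.14) and the interferon-induced GTPase Gbp2 by -0.34 (SE 0.13). Leukocytes also express the inducible subunits, and 11 of 22 leukocyte markers read lower at an unadjusted p under 0.05, against 8.43% of all genes. That count dropped to 7 when OSU-CG5 replicate 2 was left out, and to 5 when replicate 3 was. Ptprc, the pan-leukocyte marker CD45, differed by 0.16 (SE 0.14). The part of leukocyte content in the immunoproteasome values was not tested.

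Upstream sequences of Psmb5, Psmb6 and Psmb8 are shown to set standard against inducible subunits. They cover the 250 bases before the RefSeq start in GRCm38.p6, at chr14:54617996-54618245, minus strand, at chr11:70525107-70525356, plus strand, and at chr17:34197945-34198194, plus strand. Capitals mark matches to an antioxidant response element, TGACNNNGC on either strand, in Psmb5 and Psmb6, and to a gamma-activated site, TTCNNNGAA, whose other strand reads the same, in Psmb8. None of the 3 genes had a match to the interferon-stimulated element in this window, and no matches of different motifs overlapped in the sequences shown.
Psmb5: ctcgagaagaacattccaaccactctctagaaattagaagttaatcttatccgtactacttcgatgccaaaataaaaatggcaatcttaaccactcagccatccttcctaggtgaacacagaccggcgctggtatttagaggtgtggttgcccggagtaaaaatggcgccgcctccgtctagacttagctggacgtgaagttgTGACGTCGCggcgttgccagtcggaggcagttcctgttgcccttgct
Psmb6: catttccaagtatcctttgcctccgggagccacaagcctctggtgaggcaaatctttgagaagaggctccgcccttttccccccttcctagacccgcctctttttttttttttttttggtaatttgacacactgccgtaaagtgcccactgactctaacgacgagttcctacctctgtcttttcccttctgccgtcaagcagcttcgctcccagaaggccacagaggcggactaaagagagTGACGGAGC
Psmb8: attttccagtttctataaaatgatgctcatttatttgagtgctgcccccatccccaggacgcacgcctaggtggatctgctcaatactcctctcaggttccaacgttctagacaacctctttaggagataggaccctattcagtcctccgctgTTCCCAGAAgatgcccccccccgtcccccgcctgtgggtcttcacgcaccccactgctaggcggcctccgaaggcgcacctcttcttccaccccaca
The antioxidant element ends 39 bases before the start of Psmb5 and 1 base before that of Psmb6, and the gamma-activated site of Psmb8 ends 89 bases before its start. Of the 39 member genes in the table, 5 (12.8%) had the antioxidant element, namely Psmb5, Psmb6, Psmc6, Psmd9 and Psmd12, against 10.2% of all promoters. A gamma-activated site was found in 2 genes, Psmb8 and Psmg1, against 7.02% of all promoters. A match of letters is no binding site, and these shares describe the sequence only.

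The ATPase ring of the cap had 0 of 6 genes at an unadjusted p under 0.05 in limma, and a median of -0.04. Psmc1 read 8.79, 9.27 and 8.68 in vehicle and 8.82, 8.42 and 8.59 with OSU-CG5, a difference of -0.30 (SE 0.18). Psmc4 read 8.56, 9.23 and 9.00 in vehicle and 8.66, 8.59 and 8.72 with OSU-CG5, a difference of -0.27 (SE 0.17), while its other probe set gave 0.04. In both genes vehicle replicate 2 was the highest array. Psmc6 showed the opposite placing. It read 11.29, 9.88 and 11.33 in vehicle and 11.47, 11.04 and 10.98 with OSU-CG5, so that its difference of 0.33 (SE 0.36) turned to -0.15 (SE 0.16) without vehicle replicate 2. Both other probe sets of Psmc6 were lowest in that array too, at 8.12 and 6.07. Psmc3 and Psmc5 differed by 0.05 (SE 0.13) and 0.03 (SE 0.14), and Psmc2 by -0.11 (SE 0.12).

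The 11 other subunits of the cap also gave 0 genes at an unadjusted p under 0.05, with 5 above 0 and a median of -0.08, which turned to 0.06 without vehicle replicate 2. Psmd6, a scaffold subunit of the lid, read 11.62, 11.33 and 11.64 in vehicle and 12.00, 11.74 and 11.67 with OSU-CG5. Its groups did not overlap, as for 8.1% of all genes in the higher direction, but the nearest arrays were 0.03 apart. The difference was 0.27 (SE 0.14; limma adjusted p = 0.375), and the gene's other probe set gave -0.03. Psmd13 read 8.07, 8.53 and 8.23 in vehicle and 8.42, 7.75 and 7.82 with OSU-CG5, a difference of -0.28 (SE 0.20). Psmd14, the deubiquitinating enzyme of the lid, differed by 0.12 (SE 0.11), with a 95% interval of -0.14 to 0.39. The ubiquitin receptor Psmd4 differed by -0.10 (SE 0.14), and the large base subunits Psmd1 and Psmd2 by 0.16 (SE 0.15) and -0.12 (SE 0.22). The lid subunits Psmd3, Psmd7, Psmd8 and Psmd12 differed by -0.17 to 0.08. Psmd11, whose level can limit cap assembly, read 10.68, 10.80 and 11.09 in vehicle and 10.87, 10.81 and 10.89 with OSU-CG5, a difference of 0.00 (SE 0.14).

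Of the 7 assembly chaperones, 5 were below 0, with a median of -0.14, which turned to 0.02 without vehicle replicate 2. Psmg4, which helps to build the alpha ring, read 7.31, 7.63 and 7.45 in vehicle and 7.14, 7.18 and 7.20 with OSU-CG5. All OSU-CG5 arrays lay below all vehicle arrays. The difference was -0.29 (SE 0.12), with an unadjusted p of 0.0464 and a limma adjusted p of 0.296, and it was -0.20 without vehicle replicate 2. The partners Psmg3 and Psmg1 differed by -0.20 (SE 0.17) and -0.19 (SE 0.20), and Psmg2 by 0.22 (SE 0.18). The dimmer probe set of Psmg3 went the other way, at 0.41 (SE 0.13). Psmd10, known as gankyrin and a chaperone of the ATPase ring, differed by -0.14 (SE 0.13), Psmd9, another of these, by -0.13, and Psmd5 by 0.01 (SE 0.12). The dimmer probe sets of Psmd9 gave 0.73 (SE 0.26) and -0.003 (SE 0.14).

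Psme4 was read by 6 probe sets, and all of them read higher with OSU-CG5. It encodes a large activator that caps the core in place of the ATPase-bearing cap and is known for its role in histone turnover during sperm formation. The brightest probe set read 10.59, 10.38 and 10.46 in vehicle and 10.80, 10.73 and 10.74 with OSU-CG5. Every OSU-CG5 array was above every vehicle array. The difference was 0.28 (SE 0.11), with an unadjusted p of 0.0364 and a limma adjusted p of 0.276, and without vehicle replicate 2 it was 0.23 with an unadjusted p of 0.0887. All 5 other probe sets of Psme4 also read higher without overlap, where 22.4% of secondary probe sets of all genes did not overlap in either direction. The next brightest read 9.37, 9.48 and 9.14 in vehicle and 9.82, 9.70 and 9.87 with OSU-CG5, a difference of 0.47 (SE 0.13). The third read 7.85, 7.83 and 7.73 in vehicle and 8.54, 8.42 and 8.75 with OSU-CG5, a difference of 0.77 (SE 0.13; limma adjusted p = 0.125). Without vehicle replicate 2 that probe set differed by 0.78 and its limma adjusted p was 0.0426. The remaining 3 differed by 1.34 (SE 0.49), 0.57 (SE 0.16) and 0.53 (SE 0.16), and the first of these read 4.04 in vehicle replicate 2 against 6.10 and 6.08 and differed by 0.66 without it. The 6 probe sets read the same 6 RNA samples, so they are not replicates, and their differences spanned 0.28 to 1.34.

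**Figure D4:**
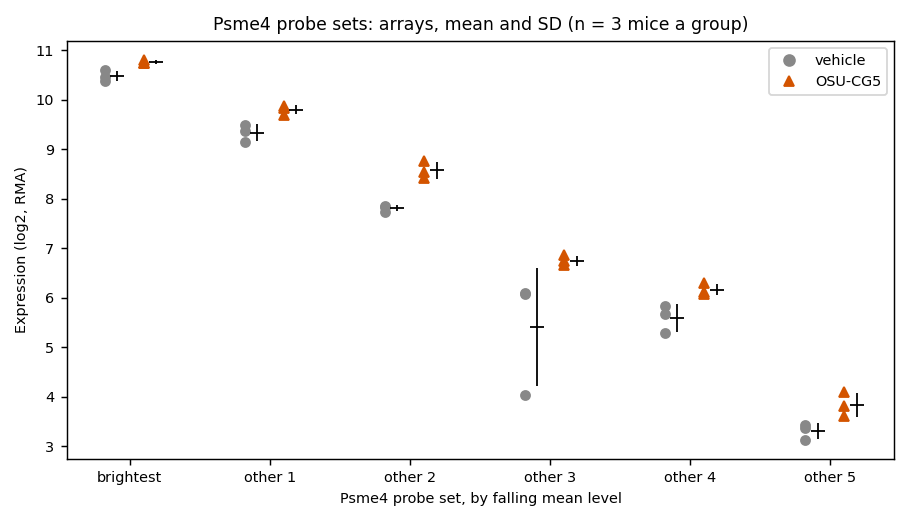
Log2 expression of the 6 Psme4 probe sets on each array, ordered by mean level, with mean and SD of 3 mice as black marks. Triangles (OSU-CG5) lie above circles (vehicle) in every probe set, and the wide SD of the fourth comes from vehicle replicate 2 at 4.04.

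Upstream of the Psme4 start, shown because all its probe sets read higher, the 250 bases at chr11:30771525-30771774, plus strand of GRCm38.p6 held none of the 3 motifs and are written without capitals.
Psme4: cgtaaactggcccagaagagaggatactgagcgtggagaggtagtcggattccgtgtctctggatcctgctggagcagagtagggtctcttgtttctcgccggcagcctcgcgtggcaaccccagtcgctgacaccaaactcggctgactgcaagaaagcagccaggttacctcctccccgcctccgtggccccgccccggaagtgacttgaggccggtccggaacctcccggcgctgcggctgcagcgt

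The other genes of this group did not pass the unadjusted threshold. Psmf1, a proteasome inhibitor, read 7.13, 7.42 and 7.09 in vehicle and 6.98, 6.97 and 7.05 with OSU-CG5, without overlap, a difference of -0.22 (SE 0.13; limma adjusted p = 0.425) that was -0.11 without vehicle replicate 2. Psme3, the nuclear activator related to Psme1, differed by -0.25 (SE 0.20), and vehicle replicate 2 was its highest array at 7.92. Without that array Psme3 differed by -0.04.

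Secondary probe sets of the members read differently from the brightest ones. Of the 53, 30 were above 0 (40.3% of all secondary probe sets were) with a median of 0.08, and 11 had an unadjusted p under 0.05, all higher with OSU-CG5. That is 20.8%, against 16.0% among the secondary probe sets of all genes, 9.47% higher and 6.48% lower. At least 1.5-fold was reached by 7 of the 53, against 6.1% of all. Of the 11, 8 had a mean under log2 6, a level at which 27 of the 53 stood. Among secondary probe sets of all genes under log2 6, 617 of 11111 read higher at that threshold. Psme4 supplied 5 of the 11. The remaining 6 were 1 each of Psma1, Psma6, Psmc2, Psmd9, Psmd13 and Psmg3. A probe set of Psmc2 read 4.53, 4.39 and 4.30 in vehicle and 4.98, 5.16 and 4.97 with OSU-CG5, a difference of 0.62 (SE 0.12; limma adjusted p = 0.142), while the gene's brightest gave -0.11. A probe set of Psmd13 differed by 0.66 (SE 0.16) where its brightest gave -0.28, and a dim one of Psma6 by 1.45 (SE 0.43) where its brightest gave -0.03. The Psma6 value was 0.96 without vehicle replicate 2, which read 2.58 against 3.50 and 4.61 in the other vehicle mice. Of the 53, 26 had a mean of log2 6 or more, and 3 of these read higher at that threshold, all of Psme4, as did 970 of 5641 secondary probe sets of all genes at that level. Without vehicle replicate 3, 18 were higher and 2 lower, where 11.7% of all secondary probe sets were higher and 9.65% lower. Without OSU-CG5 replicate 1, 7 were higher and 3 lower, against 6.73% and 4.87% of all. Which transcripts the secondary probe sets read was not tested.

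OSU-CG5 replicate 1 was the highest of its group for 32 of 47 genes (68.1%), against 50.2% of all genes with a mean of at least log2 6. Psma1 read 10.45 there against 9.63 and 9.65, and Psmb7 read 9.26 against 8.52 and 8.58. Vehicle replicate 2 was the highest of its group for 25 of the 47 genes (53.2%) and the lowest for 13 (27.7%), near its shares of 55.1% and 26.1% over all genes of that mean. Its place differed with the subunit group: it was highest for 8 of 11 non-ATPase cap genes and 5 of 7 chaperones, but lowest for 5 of 8 alpha genes. These are descriptions of single arrays, and the median SD within a group over the 47 genes was 0.23 in vehicle and 0.14 with OSU-CG5.

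**Figure D5:**
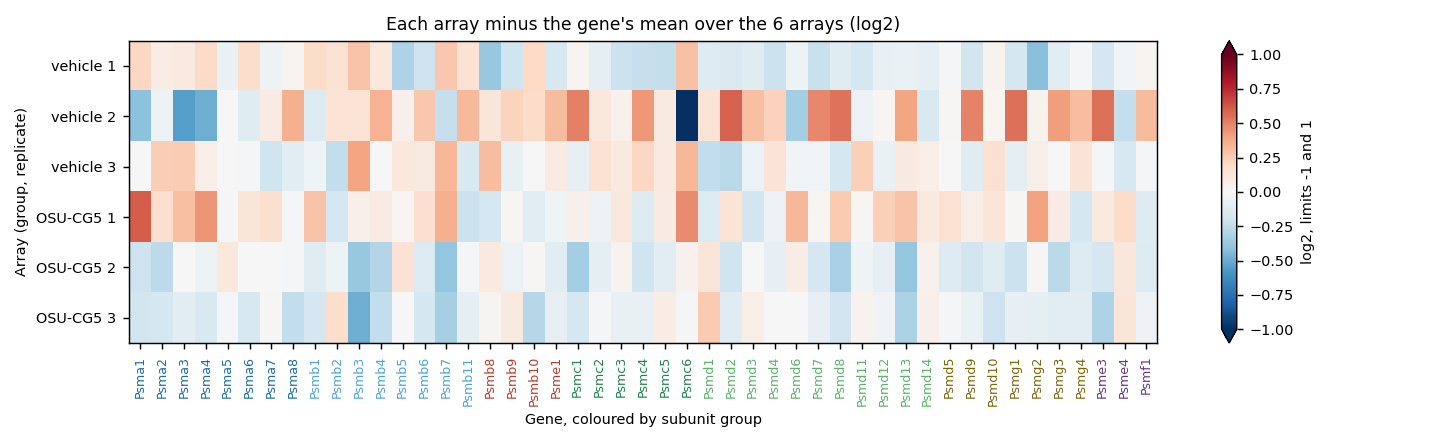
Each array's value minus the mean of that gene over the 6 arrays (log2, red above and blue below, colour limits -1 and 1) for the 47 proteasome genes, with arrays in rows and names coloured by subunit group. The row of vehicle replicate 2 has strong colours of both signs. The row of OSU-CG5 replicate 1 is mostly red, as that array was the highest of its group for 32 genes.

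Genes that act with the proteasome were read from lists made by role. Of 10 measured partners of the cap and of assembly, 1 was higher and 1 lower at an unadjusted p under 0.05 in limma, against 5.4% and 8.43% of all genes. A single gene was left without vehicle replicate 1 or without any 1 of the OSU-CG5 arrays. Ecpas, a HEAT-repeat protein that binds the cap to the core, read 8.85, 8.70 and 8.57 in vehicle and 9.31, 9.10 and 9.23 with OSU-CG5, without overlap. The difference was 0.51 (SE 0.12; limma adjusted p = 0.164), and its other probe sets gave 0.46, 0.49 and -0.13. Usp14, the deubiquitinase that docks on the cap, read 9.16, 9.15 and 9.21 in vehicle and 8.92, 8.92 and 8.87 with OSU-CG5, a difference of -0.27 (SE 0.11). Its other probe sets gave 0.12, 0.53 and 0.33, so the direction depended on the probe set. The maturation factor Pomp differed by -0.13 (SE 0.18), the deubiquitinase Uchl5 by 0.22 (SE 0.15) and Zfand5, a proteasome-activating zinc finger protein, by 0.23 (SE 0.12). The 7 measured genes of ubiquitin shuttling and unfolding had a median of 0.06 with 0 at that threshold, among them Vcp at 0.07 (SE 0.15), Rad23b at 0.17 (SE 0.16) and Nploc4 at -0.26 (SE 0.15). Secondary probe sets of Vcp and Rad23b gave other sizes, 1.31 (SE 0.37) for Vcp and 1.30 (SE 0.39), -0.11 and -0.21 for Rad23b, and vehicle replicate 2 was lowest in both large ones. The brightest Rad23b value was 0.34 without vehicle replicate 2, with an unadjusted p of 0.0233. The 6 peptidases that trim proteasome products had a median of 0.04 and also 0 at that threshold, with Tpp2 at 0.12 (SE 0.11) and Thop1 at -0.15 (SE 0.12). These are their brightest probe sets. The other probe set of Thop1 gave -0.34 (SE 0.15; unadjusted p = 0.0447 in limma). That of Nrd1 gave -0.32 (SE 0.12; unadjusted p = 0.0305), where its brightest gave -0.03. Those of Tpp2 gave 1.46, 1.19, 0.34 and -0.02, and vehicle replicate 2 was lowest in both large ones.

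Among 6 measured genes of the Nfe2l1 pathway, 4 had an unadjusted p under 0.05 in limma, 1 higher and 3 lower, against 13.8% of all genes in either direction. Without OSU-CG5 replicate 2 there were 2. Nfe2l1, the factor that induces subunit genes, read 8.28, 8.58 and 8.12 in vehicle and 7.99, 7.91 and 7.99 with OSU-CG5. Its groups did not overlap, and the difference was -0.36 (SE 0.14; limma adjusted p = 0.266) with all arrays. Without vehicle replicate 2 it was -0.24, with an unadjusted p of 0.0899 in limma. Nfe2l1 also lost the unadjusted threshold without vehicle replicate 1, without any 1 of the OSU-CG5 arrays and in the unmoderated fit. The small Maf protein gene Mafk read 8.43, 8.60 and 8.21 in vehicle and 7.88, 7.90 and 7.96 with OSU-CG5, a difference of -0.50 (SE 0.13; limma adjusted p = 0.173). Maff read 6.38, 6.38 and 6.33 in vehicle and 6.02, 5.95 and 6.15 with OSU-CG5, a difference of -0.33 (SE 0.11). Mafg went the other way, with 6.06, 6.21 and 6.39 in vehicle and 6.86, 6.61 and 6.74 with OSU-CG5, a difference of 0.52 (SE 0.13), but its other probe set gave -0.10. The related factor Nfe2l2 differed by 0.06 (SE 0.16), and Ngly1, the glycanase that processes Nfe2l1, by 0.24 (SE 0.15). Small Maf proteins also serve other factors, and no gene of this list passed the adjusted threshold. Beside these values, the subunit genes gave a median of -0.03 in the core and -0.08 in the cap.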

How the data were processed

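The authors deposited 1 log2 value per probe set and array. The submitters' processing notes name RMA, without software or version. RMA gives the arrays a shared distribution of probe intensities before these are combined into probe sets, so a broad shift in 1 direction is partly removed. The deposited probe set values do not share 1 distribution exactly. Their array medians ran from 5.30 in vehicle replicate 2 to 5.38 in vehicle replicate 1. Arrays were grouped by the treatment in the tissue source label. The free text of some treated samples carries another number after the compound's prefix, and groups here follow the source label and title. Replicate numbers only name the mice. After removing 64 Affymetrix controls, 45037 probe sets were tested with limma (limma 3.58.1, R 4.3.3; lmFit and eBayes, OSU-CG5 minus vehicle, no filter), with Benjamini-Hochberg adjustment over all of them at 0.05. SE is moderated, and SD is over 3 arrays. Of these, 34945 had a single symbol from the platform annotation, and only they were named. The procedure was tested on simulated data. Catalytic pairs were compared by exact permutation over arrays. Promoter sequences are from RefSeq (GRCm38.p6), where 39 of the 47 genes matched, and start 250 bases before the gene.

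Named with values were all immunoproteasome and standard catalytic genes, every member at an unadjusted p under 0.05, and in each other subunit group the 4 genes of smallest p and both extremes of difference, plus up to 4 genes of each other list and a few fixed ones. Further members are given by value for completeness. The members and lists were chosen with earlier results of these data known. Listed genes without a single-symbol probe set, such as Adrm1 and Ubb, were not analysed here. Alternatives were 3 other normalizations, minimum means of log2 4 and log2 6, other variance models, array weights, other probe sets per gene, and each array left out in turn. The number of arrays limits the precision.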

Additional observations from a re-analysis of the deposited data

How the results depend on the processing

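Adjusted calls over all probe sets were 0 with all arrays, 822 with array quality weights, and 0 to 885 when each array was left out in turn, with 400 without vehicle replicate 2 and 885 without vehicle replicate 3. None of the 47 genes, each at its brightest probe set, was called in any of these or under the other alternatives, and the smallest limma adjusted p was 0.0526 for a member with array weights. The count of proteasome genes at an unadjusted p under 0.05 was 1 to 4 with each array left out, and 1 without vehicle replicate 2, OSU-CG5 replicate 2 or OSU-CG5 replicate 3, where Psmb3 was the gene. Psmb3 was among them in all alternatives but the choice of probe sets without a suffix for shared transcripts, where its dimmer probe set was used. Medians changed sign: the core median ran from -0.14 to 0.00, that of the cap from -0.16 to 0.05 (the highest without vehicle replicate 2) and that of the immunoproteasome genes from -0.22 to 0.03 (the highest with array weights). Psmb10 minus Psmb7, near 0 with all arrays, was 0.0777 with cyclic loess, 0.0138 with repeated quantile normalization, 0.19 without vehicle replicate 2, and -0.21 to 0.22 over the 6 omissions of an array, the highest without OSU-CG5 replicate 1. The cause was not tested. Psme4 kept its direction throughout, from 0.23 to 0.66, where the highest is the mean of all its probe sets and not the brightest. It lost its unadjusted threshold without vehicle replicate 2 or 3, without any OSU-CG5 array, with cyclic loess, repeated quantile normalization or array weights. Psmg4 lost it without vehicle replicate 2 or 3, without any OSU-CG5 array, with centred arrays, with an intensity trend, with either minimum mean, with the mean of all its probe sets and with array weights. Over the 47 genes at their brightest probe sets and 14 alternatives, 53 of 655 values had the other sign, in 23 genes. Without vehicle replicate 2, 14 genes turned. The minimum means, the intensity trend and the unmoderated fit leave each log2 difference unchanged, so their values could not change sign. Other probe sets per gene are not in this count. With probe sets without a suffix for shared transcripts, Psmc2, Psmc4 and Psmd13, for example, turned to 0.08, 0.04 and 0.10. No paired analysis was possible because the labels give the mice no shared numbers.

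Added after the data were seen, the Nfe2l1 pathway count was 2 to 4 over the alternatives, and the count of secondary probe sets was 20 without vehicle replicate 3.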
